A study of Zea mays with 4 samples.

Results

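The organic acids made in the mesophyll (MS) of a C4 leaf are broken down in the bundle sheath (BS). Here 4 maize genes grouped under this step and its transport were followed among the 46430 genes of the counted annotation. They are ME1 (Zm00001d000316), an NADP-dependent malic enzyme, PCK1 (Zm00001d028471), a phosphoenolpyruvate carboxykinase, DCT2 (Zm00001d031253), a dicarboxylic acid transporter, and MDH (Zm00001d034241), a malate dehydrogenase. They were chosen by their annotation, with earlier results of these data known. Bulk RNA-seq of polyA RNA compared whole leaf segments with protoplasts, cells freed from their walls by enzyme digestion, all from the B73 inbred line. Tissue came from the distal 6 cm of leaf 2 of V2 seedlings, and each group had 2 libraries (leaf 1 and leaf 2, protoplast 1 and protoplast 2). Each library was made from a pool of plants, given as 6 plants in the sample labels and as 4 leaves in the methods, so p-values measure the spread between pools. The question for these genes is how much of their leaf transcript level protoplast preparations retained.

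In C4 photosynthesis, phosphoenolpyruvate carboxylase in MS cells fixes CO2 into oxaloacetate, which is turned into malate or aspartate and moves to BS cells through plasmodesmata. There the acids are decarboxylated, and the CO2 released is fixed again by Rubisco. Maize uses mainly NADP-malic enzyme, which acts on malate in BS chloroplasts, together with phosphoenolpyruvate carboxykinase, which acts on oxaloacetate in the cytosol. DCT2 carries malate into BS chloroplasts in maize, and malate dehydrogenases interconvert malate and oxaloacetate.

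ME1 was also the BS gene with which the study checked protoplast preparations by quantitative RT-PCR. The primers, taken from the study's primer table, are shown because they define the part of the ME1 transcript that was monitored there, and each is 20 nt long with a GC content of 50%. Both are printed from 5′ to 3′, and no part is marked in capitals.
ME1 forward primer: aggctctcttcagccattca
ME1 reverse primer: taggcctctcgttgaaggaa
The sense-strand sequence that the reverse primer pairs with is ttccttcaacgagaggccta. Their positions in the gene were not determined here.

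Positions are those of the AGPv4 genome in the count tables. PCK1 lies on chromosome 1 at chr1:35960441-35964750 on the plus strand, with a counted exon length of 2766 bp. DCT2 lies at chr1:183880314-183892062 on the minus strand and has 2013 bp of exon. MDH lies at chr1:287663868-287667586, also on the minus strand, with 1632 bp. ME1 was placed on the unanchored contig B73V4_ctg89, from position 18903 to 24123 on the plus strand, with 2108 bp. No member overlapped another annotated gene. Whether reads that map to several places were counted is not given in the sources used here, so reads shared with close paralogs could have been split.

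Leaf 1 counts end partway along chromosome 3 in the data used here, and 18609 genes had an intact row in all 4 libraries. PCK1, DCT2 and MDH are among them, whereas ME1 was measured in leaf 2 and both protoplast libraries. Total counts of the 3 complete libraries lay between 41792981 and 47061988, and over the 18609 shared genes the totals of the 4 libraries lay between 14976340 and 18322950. Levels are CPM, counts per 1e6 counts of the library, after trimmed mean of M-values (TMM) scaling, over the shared genes for the 4-library comparison and over all genes for the 3 complete libraries, so CPM values of the 2 comparisons are on different scales. Fold changes are protoplast over leaf, from edgeR's quasi-likelihood test, and a call required an adjusted p (Benjamini-Hochberg) under 0.05 with a log2 fold change above 1 or below -1. Of 9017 genes tested over 4 libraries, 23.4% were called lower and 19.6% higher in protoplasts, and of 23262 tested over the complete libraries 20.4% were called lower and 18.5% higher. When libraries were scaled within a list of BS genes in place of all genes, 5681 genes were called higher and 897 lower over 4 libraries, against 1770 and 2110 with TMM over all genes. Of the marker lists, the summed level of 6 MS genes was between 62448 and 65962 CPM in the protoplast libraries and 71298 CPM in leaf 2, without TMM. The summed level of 9 BS genes other than the members was 23240 CPM in leaf 2 and between 876 and 933 CPM in protoplasts. No gene of these lists was at 0 in any complete library, so the defining genes of both cell types were detected in leaf and in protoplasts. Counts of organelle genes made up 1.45% of all counts in leaf 2 against 2.52% and 5.09% in protoplast 1 and protoplast 2, and the part of this difference in the results was not tested.

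The transcripts of both decarboxylases fell to a few percent of their leaf level in protoplasts. PCK1 had 272939 counts in leaf 1 and 229776 in leaf 2, but 4970 in protoplast 1 and 4107 in protoplast 2. In CPM over the shared genes these were 13456 in leaf 1 and 13119 in leaf 2, but 309 in protoplast 1 and 317 in protoplast 2. The leaf libraries were thus far above both protoplast libraries, and the replicates of each group lay close together. The leaf mean was 13288 ± 239 CPM (SD, n = 2) and the protoplast mean 313 ± 5.63 CPM (SD, n = 2). The log2 fold change of PCK1 was -5.41 (standard error 0.16), a 42.4-fold lower level, with an adjusted p = 5.77e-06 by edgeR's quasi-likelihood test. Protoplasts therefore retained 2.36% of the leaf level of PCK1. Under scaling to the BS list its log2 fold change was -3.96, with the same direction and call. PCK1 was among the most abundant transcripts of the leaf, with place 63 of 23262 tested genes by counts per kb in leaf 2, and took places 2213 and 2353 in protoplast 1 and protoplast 2. In bulk samples, fewer cells of a type and less RNA per cell cannot be told apart.

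ME1, the main decarboxylase of the maize pathway, was the most abundant member in leaf. It had 328965 counts in leaf 2 against 7254 and 5276 in the protoplast libraries, which is 0.787% of all counts in leaf 2 and 0.0154% and 0.0123% in the protoplast libraries. In CPM over all genes the levels of ME1 were 6646 in leaf 2 against 158 and 143 in the protoplast libraries. Both protoplast libraries were more than an order of magnitude below the leaf library. The log2 fold change of ME1 over the 3 complete libraries was -5.47 (standard error 0.36, adjusted p = 3.66e-06 by edgeR's quasi-likelihood test), and 2.26% of the leaf level was retained. Scaled to the BS list it was -3.47 (adjusted p = 7.93e-05). This comparison has 1 leaf library, which is assumed to vary like the protoplast libraries. On the members that both comparisons hold, it gave log2 fold changes of -5.40 for PCK1, -6.34 for DCT2 and -0.86 for MDH, against -5.41, -6.38 and -0.83 over 4 libraries.

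**Figure D1:**
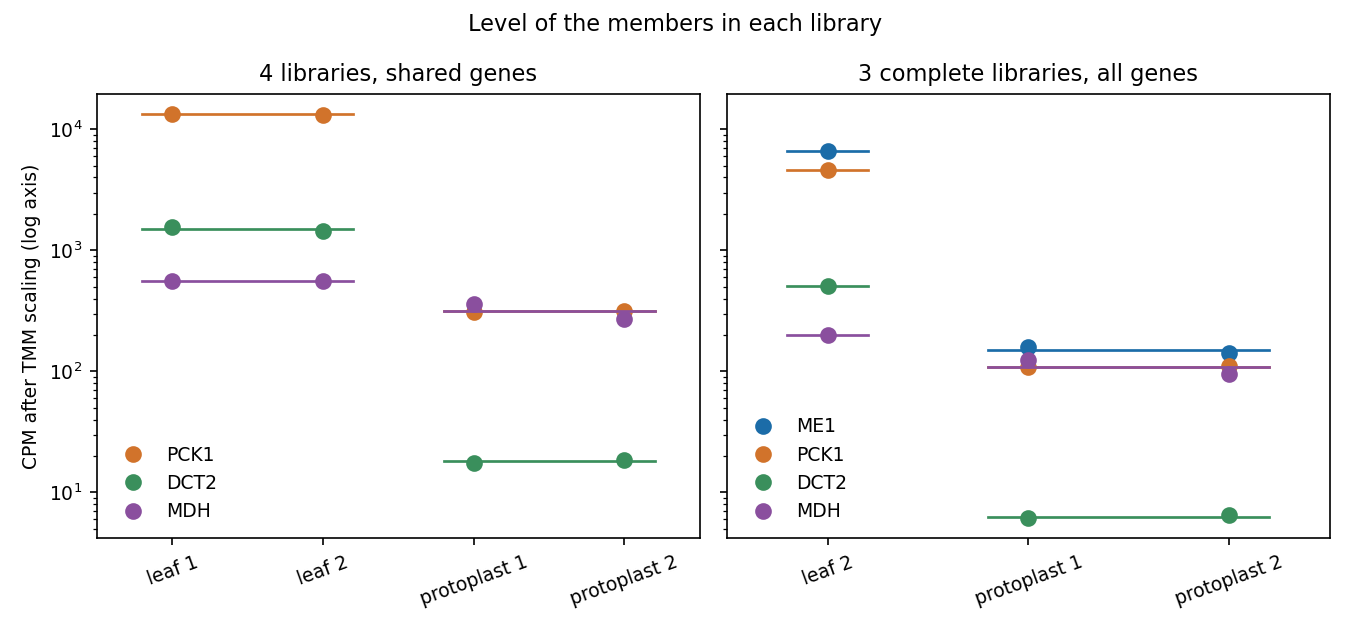
CPM after TMM scaling (log axis) of each member in each library, over the genes shared by 4 libraries (left panel, without ME1) and over all genes of the 3 complete libraries (right panel). Points are libraries and horizontal lines are group means. PCK1 is at 13456 and 13119 CPM in the leaf libraries and at 309 and 317 CPM in protoplasts, whereas MDH lies between 269.5 and 563 CPM in all 4.

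The ratio of ME1 to MDH6, the MS gene for NADP-malate dehydrogenase, was the measure by which the study chose among protoplast protocols with quantitative RT-PCR. In the sequencing counts, the ratio of ME1 to MDH6 was 3.03 in leaf 2 against 0.0586 and 0.0624 in the protoplast libraries. As log2 of counts per kb, this ratio was 1.38 in leaf 2 and -4.31 and -4.21 in the protoplast libraries. ME1 thus exceeded MDH6 in leaf and was far below it in both protoplast pools. This ratio was chosen after its values could be seen and has no test, since ME1 has 1 leaf value.

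DCT2, the transporter, showed the lowest fold change of the members in either comparison. Its counts were 31531 in leaf 1 and 25343 in leaf 2, but 283 in protoplast 1 and 240 in protoplast 2. In CPM over the shared genes the level of DCT2 was 1555 in leaf 1 and 1447 in leaf 2, but 17.6 in protoplast 1 and 18.5 in protoplast 2. The groups were separated by a wide gap, with the lower leaf library 78.1-fold above the higher protoplast library. Leaf had a mean of 1501 ± 76.1 CPM (SD, n = 2), and protoplasts had 18.1 ± 0.656 CPM (SD, n = 2). The log2 fold change of DCT2 was -6.38 (standard error 0.18, adjusted p = 5.45e-06 by edgeR's quasi-likelihood test), and 1.2% of the leaf level was retained. Scaled to the BS list the value was -4.93 (adjusted p = 4.94e-06). DCT2 moved from place 320 of 23262 genes by counts per kb in leaf 2 to places 10853 and 10810 in the protoplast libraries. It was still well above the level of 3 counts, which corresponded to between 0.148 and 0.232 CPM.

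MDH retained more of its leaf transcript level in protoplasts than the other members. It had 11278 counts in leaf 1 and 9863 in leaf 2, but 5755 in protoplast 1 and 3491 in protoplast 2. In CPM over the shared genes the level of MDH was 556 in leaf 1 and 563 in leaf 2, but 358 in protoplast 1 and 269.5 in protoplast 2. The leaf libraries were nearly equal and both lay above the protoplast libraries, which differed from each other 1.33-fold. The mean was 559.6 ± 5.02 CPM (SD, n = 2) for leaf libraries and 314 ± 62.5 CPM (SD, n = 2) for protoplast libraries. The log2 fold change of MDH was -0.83 (standard error 0.18, adjusted p = 0.0066 by edgeR's quasi-likelihood test), short of the fold limit, and its sign turned to 0.61 (adjusted p = 0.0164) when libraries were scaled within the list of BS genes. The study normalized BS genes apart from MS genes, to allow for different cell populations in leaf and protoplasts. The list of 113 genes used here for scaling holds all 4 members, and the study chose part of it on these samples. Relative to the median of all genes tested, which this scaling moved from -0.02 to 1.42, MDH was at -0.81 under either scaling. MDH passed the fold limit without protoplast 1 (-1.05, adjusted p = 8.64e-05), with library totals in place of TMM (-1.12) and with scaling to the MS genes (-1.09). It retained 56.1% of its leaf level over 4 libraries, and 27.1% of the 9017 genes had a lower fold change than MDH, against 3.50% for PCK1 and 2.46% for DCT2.

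**Figure D2:**
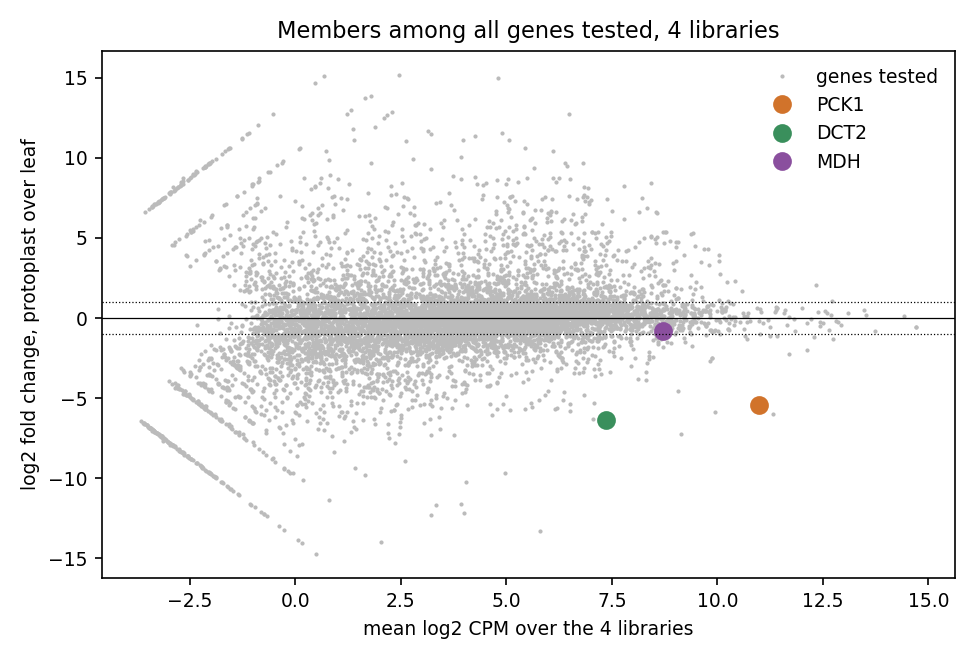
Log2 fold change, protoplast over leaf, against mean log2 CPM over the 4 libraries for 9017 genes (grey), with PCK1, DCT2 and MDH marked. Solid and dotted lines mark no change and the fold limits, and libraries at 0 were set to 0.01 CPM for the horizontal axis. PCK1 (-5.41) and DCT2 (-6.38) lie below most of the 9017 genes, of which 3.5% and 2.46% had a lower fold change. MDH (-0.83) lies above the lower limit.

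Over 4 libraries, 2 of the 3 members tested were called lower and none higher, and over the 3 complete libraries 3 of 4 were called lower and none higher. Among all genes tested, 23.4% were called lower and 19.6% higher over 4 libraries, and 20.4% and 18.5% over the complete libraries. MDH, the member without a call, was called lower with library totals in place of TMM in either comparison, and higher with scaling to the BS list over the complete libraries (1.14, adjusted p = 0.0155 by edgeR's quasi-likelihood test). With that scaling 71.5% of all genes tested were called higher, and MDH was at -0.82 relative to their median of 1.96. Together the 4 members took 1.42% of all counts in leaf 2 but only 0.039% and 0.0306% in protoplast 1 and protoplast 2.

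The order of the members by level differed between leaf and protoplasts. Scaled to exon length and library total (counts per kb per 1e6 counts), the level in leaf 2 was 3734 for ME1, 1988 for PCK1, 301.2 for DCT2 and 145 for MDH. In protoplast 1 it was 73.1 for ME1, 38.2 for PCK1, 2.99 for DCT2 and 74.9 for MDH. In protoplast 2 it was 58.5 for ME1, 34.7 for PCK1, 2.78 for DCT2 and 49.96 for MDH. MDH, the lowest member in leaf, thus stood beside ME1 in protoplasts, and DCT2 became the lowest by a wide margin. The order of ME1 and MDH differed between the protoplast libraries, so these neighbours did not differ beyond their spread. Of the summed level per kb of the 4 genes, MDH made up 2.34% in leaf 2, 39.6% in protoplast 1 and 34.2% in protoplast 2. The share of ME1 was 60.5% in leaf 2 and 38.6% and 40.1% in protoplast 1 and protoplast 2.

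**Figure D3:**
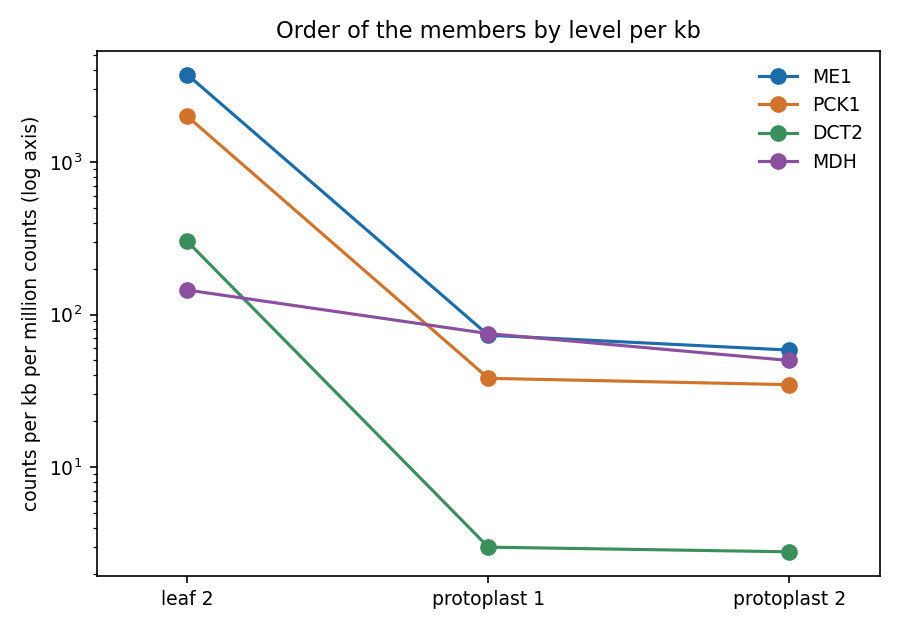
Counts per kb of exon per 1e6 counts (log axis) of the 4 members in leaf 2 and both protoplast libraries; lines join the values of a gene. ME1 leads in leaf 2 at 3734, and in protoplasts MDH (74.9 and 49.96) stands beside ME1 (73.1 and 58.5), with DCT2 below 3.

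Ratios between members within a library do not depend on how libraries are scaled. The log2 ratio of PCK1 to MDH per kb was 3.84 in leaf 1 and 3.78 in leaf 2, but -0.97 in protoplast 1 and -0.53 in protoplast 2. PCK1 thus exceeded MDH in both leaf libraries and was below it in both protoplast libraries. Protoplast minus leaf was -4.56, which exceeded the replicate spread (SD 0.039 in leaf and 0.32 in protoplasts, n = 2 each), and the exact two-sided permutation test gave p = 0.333, the smallest that 2 libraries against 2 allow. The log2 ratio of DCT2 to MDH was 1.18 in leaf 1 and 1.06 in leaf 2, but -4.65 in protoplast 1 and -4.17 in protoplast 2, a difference of -5.53. The decrease of DCT2 was also larger than that of PCK1. The log2 ratio of PCK1 to DCT2 was 2.66 in leaf 1 and 2.72 in leaf 2, and 3.68 in protoplast 1 and 3.64 in protoplast 2. The difference of 0.97 exceeded the spread of either group (SD 0.047 in leaf and 0.026 in protoplasts, n = 2 each), and no pair of a leaf and a protoplast library gave less than 0.92. The exact permutation test gave p = 0.333 for these pairs as well, so none of the 3 pairs tested could pass 0.05, with or without adjustment over them.

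The proportion of the decarboxylases to each other was similar in leaf and protoplasts. The log2 ratio of ME1 to PCK1 per kb was 0.91 in leaf 2 against 0.94 and 0.75 in the protoplast libraries. The leaf value lay between the protoplast values, so no difference beyond their spread was seen, with differences from -0.16 to 0.03 over the pairs of libraries. The log2 ratio of ME1 to DCT2 was 3.63 in leaf 2 and 4.61 and 4.39 in the protoplast libraries, and that of ME1 to MDH was 4.69 in leaf 2 and -0.04 and 0.23 in protoplasts. ME1 and PCK1 thus both gained on DCT2 and both lost against MDH.

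Other genes of the C4 pathway were set beside the members, from the study's table of C4 genes and from annotations that name enzymes or transporters of C4 acids or of other compounds of the pathway. This list has 33 genes with the members, of which 14 were tested over 4 libraries and all 33 over the 3 complete libraries. Over the 3 libraries 18 were called lower and 3 higher, where 20.4% of all genes tested were called lower and 18.5% higher. The median log2 fold change of the list was -1.27 against -0.04 for all genes tested, and the same with the gene at 0 counts in leaf 2 set at its bound. With scaling to the BS list, which moved the median of all genes to 1.96, 13 of the 33 were called lower and 15 higher, with a median of 0.73. That scaling called 6.3% of all genes tested lower and 71.5% higher. Over 4 libraries 8 of the 14 were called lower and 0 higher by edgeR's quasi-likelihood test, against 23.4% and 19.6% of all genes tested. Among the 14, 2 genes were higher at an unadjusted p of 0.05, without passing the fold limit. PDRP1, an MS gene, was at 0.50 and also passed after adjustment (adjusted p = 0.015 by edgeR's test). The other, alanine aminotransferase 2, was at 0.41 (adjusted p = 0.0622 by the same test). DESeq2 and limma-voom also called 0 higher, whereas scaling to the BS list gave 5 lower and 3 higher. Over 4 libraries that scaling called 9.95% of all genes tested lower and 63% higher.

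All 9 BS genes other than the members were called lower over the 3 complete libraries, with log2 fold changes from -7.02 to -2.10 and a median of -5.44. Among all genes tested there, 20.4% were called lower. All 9 were still below 0 with scaling to the BS list, and RBCL (-0.10) and TK1 (-0.70) no longer passed the test. Their median was then -3.44, so these 9 genes fell further than the BS list used for scaling did as a whole. RBCS2, a small subunit of Rubisco, was at -5.85, and RCA2, the activase of Rubisco, at -5.21. PRK2, a phosphoribulokinase of the Calvin cycle, was at -7.02. TK1, a transketolase, was at -2.70 and retained 15.4% of its leaf level. RBCL (Zm00001d006402), which the study lists as a genomic copy of the Rubisco large chain, was at -2.10 and retained 23.4%, and the counts cannot separate it from the plastid gene where their sequences match. The values of ME1, PCK1 and DCT2 lay within this range, and that of MDH lay outside it, above all 9. The study's table lists MDH among its BS genes. By the values here MDH retained 55.1% over the 3 libraries, against 0.770% to 23.4% for the 9 BS genes and 89.9% to 159% for the 6 MS genes.

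None of the 6 MS genes was called in either direction over the 3 complete libraries by edgeR's quasi-likelihood test, with log2 fold changes from -0.15 to 0.67. When scaled to the BS list they were at 1.85 to 2.67, and all 6 were called higher. Under that scaling 71.5% of all genes tested were called higher, with a median of 1.96. PEP1, the phosphoenolpyruvate carboxylase that makes the acids, was at -0.15 (standard error 0.38). MDH6, the NADP-malate dehydrogenase that makes malate in MS chloroplasts, was at 0.18 (standard error 0.35). With library totals in place of TMM the log2 fold change of MDH6 over 4 libraries moved from 0.19 to -0.09.

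**Figure D4:**
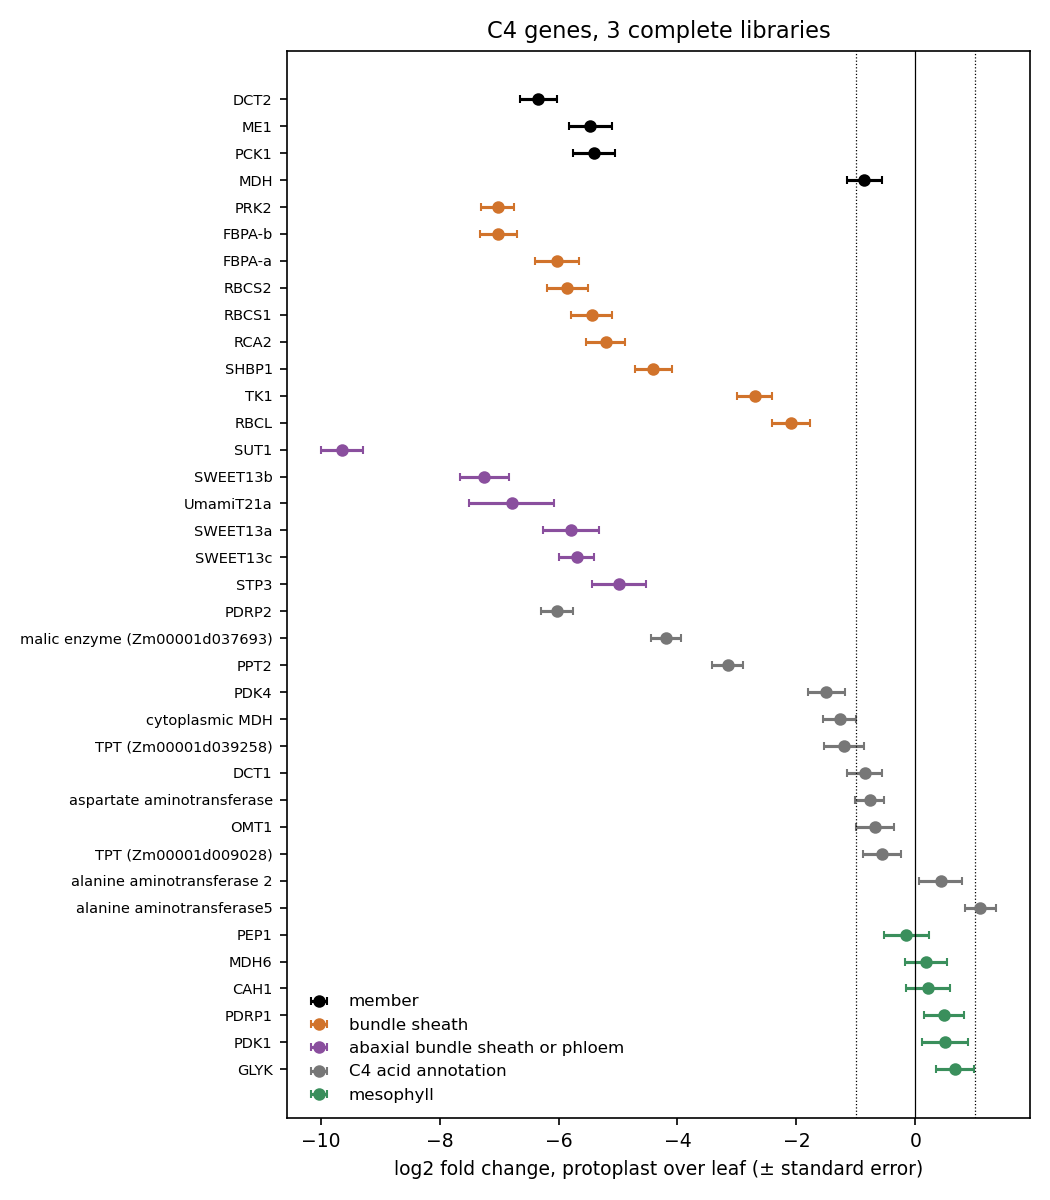
Log2 fold change, protoplast over leaf, with standard error, of the members and the other listed C4 genes over the 3 complete libraries, by list; 2 genes with 3 counts or fewer in leaf 2 are left out, and dotted lines are the fold limits. ME1, PCK1 and DCT2 lie among the 9 listed BS genes (-7.02 to -2.10), and MDH (-0.86) lies between those and the listed MS genes (-0.15 to 0.67).

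Among the 14 genes listed by annotation, 6 were called lower, 3 higher and 5 were not called over the 3 complete libraries. Of all genes tested there, 20.4% were called lower and 18.5% higher. The median log2 fold change of the 14 was -0.81, the same with Zm00001d010358, which had no count in leaf 2, set at its lower bound. Not all of the 14 act on C4 acids. The group also holds PPT2, the triose phosphate translocators Zm00001d009028 and Zm00001d039258, the pyruvate phosphate dikinase gene PDK4 and PDRP2, named for a regulator of that enzyme. Of those named, all but Zm00001d009028 were called lower. With scaling to the BS list, 3 of the 14 genes were called lower and 8 higher, with a median of 1.19. That scaling called 6.3% of all genes tested lower and 71.5% higher, with a median of 1.96. The fold changes of the other malate carriers were nearer to that of MDH than to that of DCT2. DCT1, another dicarboxylic acid transporter, had 8568 counts in leaf 1 and 6748 in leaf 2, but 4023 in protoplast 1 and 2356 in protoplast 2. Its log2 fold change was -0.90 (standard error 0.19, adjusted p = 0.00629 by edgeR's test over 4 libraries), short of the fold limit. OMT1, the oxoglutarate/malate transporter of the chloroplast envelope, was at -0.70 (standard error 0.17, adjusted p = 0.0116), also short of the limit. With scaling to the BS list, the log2 fold changes of DCT1 and OMT1 over 4 libraries turned positive as for MDH, at 0.55 and 0.75. Both were below the median of 1.42 for all genes tested under that scaling. A cytoplasmic malate dehydrogenase (Zm00001d032695) fell by 1.26 on the log2 scale (standard error 0.14, adjusted p = 0.000381 by edgeR's test), with 41.7% of its leaf level retained, and its value with scaling to the BS list was 0.19. PPT2, a phosphoenolpyruvate/phosphate translocator, fell by 3.17 (standard error 0.15, adjusted p = 1.40e-05).

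Besides ME1, 2 genes carried the annotation malic enzyme. Zm00001d037693 had 1193 counts in leaf 2 against 67 and 43 in the protoplast libraries, and its log2 fold change over the 3 libraries was -4.19 (standard error 0.25, adjusted p = 2.25e-06 by edgeR's test). Zm00001d010358 had 0 counts in leaf 2 against 34 and 27 in the protoplast libraries, and was at least 12-fold higher in protoplasts against a floor of 3 counts in the leaf library. Its highest count was far below the count of ME1 in any library. A gene of the lactate/malate dehydrogenase family (Zm00001d014945) had 2 counts in leaf 2 against 67 and 96 in the protoplast libraries, a ratio of 48.6 with a 95% counting interval from 13.3 to 405 (exact Clopper-Pearson, counting error only). Alanine aminotransferase5, an enzyme that interconverts alanine and pyruvate, was higher at 1.09 (standard error 0.26, adjusted p = 0.00793 by edgeR's test) and at 0.73, short of the fold limit, with library totals in place of TMM.

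**Figure D5:**
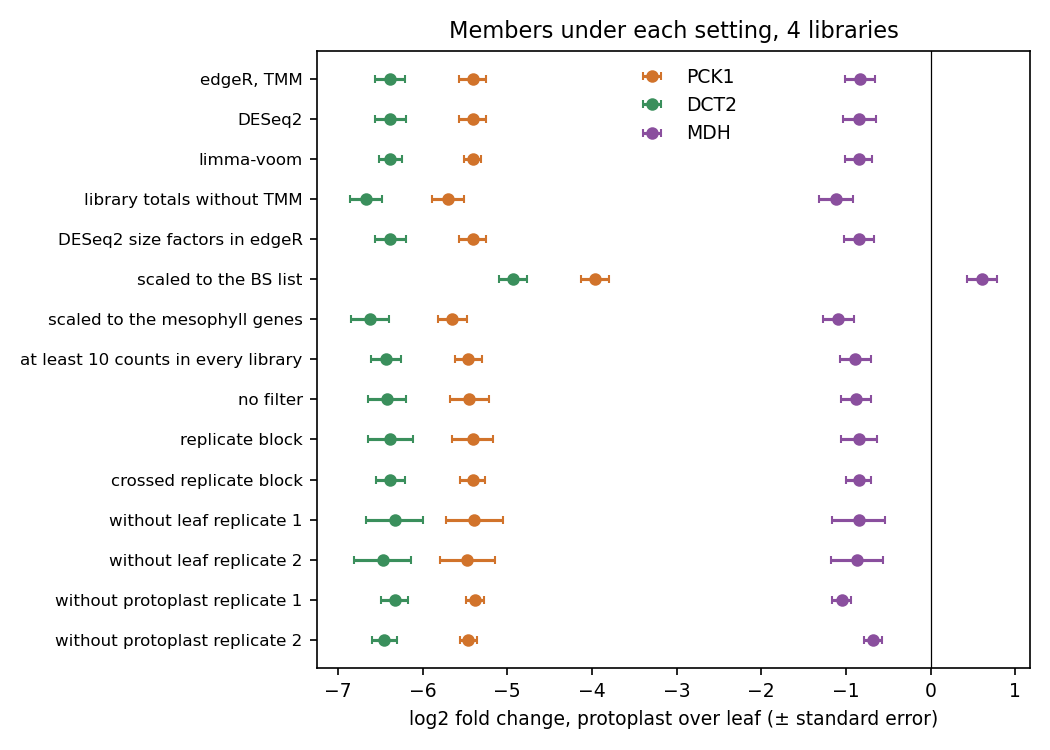
Log2 fold change of PCK1, DCT2 and MDH, protoplast over leaf, over 4 libraries under each setting, with standard error. DCT2 stays below PCK1 in all settings, and MDH lies between -1.12 and -0.68 except when libraries are scaled to the BS list, where it is 0.61.

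For each member, the 3 genes named in the study's tables with the most similar pattern were found by the root mean square difference of centred log2 CPM, among 863 candidate genes over 4 libraries and 1456 over the 3 complete libraries for ME1. The values describe likeness over 3 or 4 libraries that the genes share, and carry no test. The study's tables list cell type markers and genes that differed between protoplasts and leaf, so the candidates are not a sample of all genes. The nearest to ME1 was the Rubisco small subunit gene RBCS1 (Zm00001d052595), with a difference of 0.030 and a level of 2945 CPM in leaf 2 and 69.5 and 65.8 CPM in protoplasts. CP12-1 (0.058), named for a small chloroplast protein that regulates Calvin cycle enzymes, and Rubisco activase2 (0.13) followed. The nearest to PCK1 was glycine decarboxylase1 (0.051), an enzyme of photorespiration, at 891 and 833 CPM in leaf and 20.7 and 22.2 CPM in protoplasts. A late embryogenesis abundant protein Lea5 gene (0.093) and a quinone oxidoreductase-like gene (0.15) followed. DCT2 had no neighbour as close, with a fructose-bisphosphate aldolase (Zm00001d023559) at 0.20, a sulfate transporter gene (Zm00001d002038) at 0.23 and RBCS2 at 0.27. The nearest to MDH was the gene of the chlorophyll a-b binding protein CP29.1 (0.043), a light-harvesting protein, at 4778 and 5017 CPM in leaf and 3311 and 2323 CPM in protoplasts. Derlin4 (0.054) and CCG-binding protein 1 (0.059) came next, and the log2 fold changes of these 3 genes lay between -0.86 and -0.76.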

How the data were processed

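Whole leaf segments and protoplasts were compared in 4 bulk RNA-seq libraries, grouped by the sample labels. The authors trimmed reads with Trim Galore 0.6.5, mapped them with STAR 2.5.1b to AGPv4, the B73 reference, and assigned them to genes with featureCounts 2.0.1. The deposited files hold the resulting raw counts, not normalized. According to the methods, sequencing was on 1 lane. Whether counting used strand is not given in the sources used here. For leaf 1, 10 lines of counts are damaged and the last position on chromosome 3 is 193755817, so leaf 1 counts were kept only for genes whose annotation fields equalled those of the other libraries.

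Software was edgeR 4.0.16, DESeq2 1.42.0 and limma 3.58.1 under R 4.3.3, and SciPy 1.17.1. Genes were filtered with filterByExpr, libraries were scaled with TMM factors, and groups were compared by edgeR's robust quasi-likelihood test, without a replicate block. The methods name edgeR, TMM and the fold limit, and the p limit was added here. They also state that BS-enriched and MS-enriched genes were normalized apart from each other, because cell populations were expected to differ. TMM over all genes, the main scaling here, departs from this, and scaling to the BS list or to the MS genes is nearer to it. Standard errors were obtained from the log2 fold change and its F statistic, as the absolute change over the root of F. The scripts were tested on simulated counts with 200 changed genes. Since no molecular identifiers are mentioned, reads are not taken as independent molecules, and intervals and floors cover counting error only.

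The members and gene lists were chosen with earlier results of these data known. The text names all members, the listed C4 genes, the annotated gene next to each member on either side, and for each member the 3 named genes nearest in pattern with a mean log2 CPM of at least 5. Gene names come from the study's tables, since 0 of the counted Zm00001d identifiers matched the RefSeq gene table (assembly Zm-B73-REFERENCE-NAM-5.0). The list used for scaling to BS genes has 113 genes, and 53 of them had an intact row in every library. The authors' own fold changes were not used. Alternatives were DESeq2, limma-voom, other scalings and filters, a replicate block and leaving out each library.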

Additional observations from a re-analysis of the deposited data

How the results depend on the processing

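The log2 fold changes of ME1, PCK1 and DCT2 kept their direction and their side of the thresholds under every alternative that gave a test, from -5.83 to -3.47 for ME1 and from -5.77 to -3.40 for PCK1 over the 3 complete libraries, and from -6.67 to -4.93 for DCT2 over 4 libraries. MDH changed sign with scaling to the BS list, to 0.61 over 4 libraries and to 1.14 over the 3 complete libraries; among the other alternatives it lay between -1.12 and -0.68 over 4 libraries, with adjusted p up to 0.034. It passed the fold limit and was then called lower with library totals (-1.12 over 4 libraries and -1.21 over the complete libraries), with scaling to the MS genes (-1.09) and without protoplast 1 (-1.05). That scaling sets BS genes as the reference by construction and moved the median of all genes tested by 1.44 over 4 libraries and by 2.00 over the complete libraries, whereas library totals moved it by -0.29 and scaling to the MS genes by -0.25. With scaling to the BS list, 5681 genes were called higher and 897 lower, and of the listed C4 genes 3 were called higher and 5 lower (15 and 13 over the complete libraries). Of all genes tested, it called 63% higher and 9.95% lower over 4 libraries, and 71.5% and 6.3% over the complete libraries. Requiring at least 10 counts in every library left 1295 genes called lower, with fewer genes tested (7432). Leaving out a library in turn gave log2 fold changes over 4 libraries from -5.47 to -5.38 for PCK1, from -6.47 to -6.33 for DCT2 and from -1.05 to -0.68 for MDH, and over the complete libraries from -5.54 to -5.39 for ME1, with no test there because 1 library would be left in each group. Besides the values of MDH and the counts named here, no call of a member changed and no count of calls moved by over 1.5 times; the counts of genes called higher and lower lay from 1296 to 1885 and from 1295 to 2596 over the alternatives other than scaling to the BS list.

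The labels do not say whether same-numbered libraries share a harvest. According to the methods, whole leaves came from sibling plants and were ground when leaves for protoplasts were harvested. Deviations of same-numbered libraries correlated at -0.125 across 9017 genes, which cannot settle whether they were pairs. The numbers were not taken as pairs in the main test. With the replicate number as a block, edgeR gave log2 fold changes of -5.41 for PCK1, -6.38 for DCT2 and -0.85 for MDH (adjusted p = 0.00875), with 1731 genes called higher and 2029 lower, and changed no call of the members. With the pairing crossed, chosen after seeing the data, 1774 genes were called higher and 2128 lower. Among the members, depth limits the values of DCT2 in protoplasts most, since they rest on 283 and 240 counts; several listed genes had fewer, such as STP3 with 6 in each protoplast library.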

Other observations

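Of the genes of the abaxial BS or the phloem, 6 that code for sugar and amino acid carriers were picked here, and were lower in protoplasts. The other abaxial BS genes of the study's table, further transporters among them, were not followed, and SUT1 is not in that table. All 6 were called lower over the 3 complete libraries by edgeR's quasi-likelihood test, with log2 fold changes from -9.64 for SUT1, the sucrose transporter that loads the phloem, to -4.99 for STP3, a sugar transport protein. Among all genes tested over these libraries, 20.4% were called lower. With scaling to the BS list the 6 genes lay between -7.65 and -3.0. SUT1 had 18802 counts in leaf 1 and 15269 in leaf 2, but 19 in protoplast 1 and 13 in protoplast 2.

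The genes beside the members on chromosome 1 were not called lower. Zm00001d028472, annotated as a FAR1 family protein, lies 749 bp beyond PCK1 on the opposite strand and had 5060 counts in leaf 1 and 4909 in leaf 2, and 5529 in protoplast 1 and 3556 in protoplast 2. Its log2 fold change was 0.22 (standard error 0.17, adjusted p = 0.28 by edgeR's test), while that of PCK1 was -5.41. Zm00001d031254, 3096 bp from DCT2, was at 0.46 (standard error 0.13, adjusted p = 0.0191), short of the fold limit, and Zm00001d034240, beside MDH, was at -0.28 (adjusted p = 0.609). The remaining neighbours had 6 counts or fewer in every library, and ME1 has no other annotated gene on its contig.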
